A study of Homo sapiens with 2 samples.

Results

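A set of 10 genes was followed in 2 RNA sequencing libraries of the pancreatic cancer line Capan-1. They were the duct secretion genes CFTR, CA2, CA9, CA12, AQP1, AQP3, AQP5, ANO1 and SCTR, and the mesothelin gene MSLN. All 10 are called duct genes below for short. The 10 genes were taken by symbol from the 31845 Ensembl genes of the deposited table, and each had a row. The choice was made with the counts of the resistant and parental libraries already known, so the differences below describe the genes chosen and test nothing. One library came from parental Capan-1 cells and 1 from an olaparib-resistant derivative, obtained by raising the drug in steps from 15 nM to 128 uM. Olaparib inhibits PARP enzymes, and both lines carry the mutant BRCA2 gene of Capan-1. Whether the resistant line is 1 clone, and whether olaparib was present at harvest, is not given in the sources used here. The labels give the cell type as breast cancer, whereas Capan-1 is an established line from a pancreatic ductal adenocarcinoma.

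Duct cells flush the digestive enzymes out of the pancreas with a bicarbonate-rich fluid. Secretin acts on its receptor SCTR and raises cAMP, which opens the apical channel CFTR for chloride and bicarbonate, while calcium opens the chloride channel ANO1. Carbonic anhydrases make bicarbonate from carbon dioxide, and aquaporins let water follow the ions. Mesothelin, encoded by MSLN, is a surface protein anchored to the membrane by a lipid, and it is made by mesothelium and by many pancreatic cancers but by little of the normal duct.

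In the resistant library CFTR, CA2 and AQP3 were 3.34-fold to 4.89-fold lower, ANO1 and CA12 were lower by less than 2-fold, and MSLN was 11.6-fold higher. AQP1 was 2.52-fold higher at a low level. CA9, AQP5 and SCTR had fewer than 50 counts in each library. There was 1 library per group, so no p-value is given. Intervals on ratios are exact conditional (Clopper-Pearson) 95% intervals, which cover counting error only.

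The 250 bases before the RefSeq start of the genes past 2-fold are shown where the RefSeq promoter table (GRCh38.p14) held them. They let the reader compare the start regions of 2 lower genes and 1 higher gene. Whether the transcripts behind the counts begin at these starts was not tested. CFTR lies at chr7:117479775-117480024 on the plus strand, AQP3 at chr9:33447594-33447843 on the minus strand and AQP1 at chr7:30911603-30911852 on the plus strand. Capitals mark TATAAA, the core of the TATA box, and TGACG, the core of the cAMP response element, each searched on both strands.
CFTR: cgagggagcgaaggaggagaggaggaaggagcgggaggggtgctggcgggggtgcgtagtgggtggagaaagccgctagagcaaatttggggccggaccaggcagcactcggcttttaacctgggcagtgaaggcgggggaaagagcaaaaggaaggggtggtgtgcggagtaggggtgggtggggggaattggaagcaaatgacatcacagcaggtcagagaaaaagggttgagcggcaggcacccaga
AQP3: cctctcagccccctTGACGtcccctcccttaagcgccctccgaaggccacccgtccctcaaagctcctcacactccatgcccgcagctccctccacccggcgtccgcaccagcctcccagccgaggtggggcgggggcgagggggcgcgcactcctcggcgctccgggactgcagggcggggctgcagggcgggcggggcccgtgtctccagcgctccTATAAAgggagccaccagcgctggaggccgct
AQP1: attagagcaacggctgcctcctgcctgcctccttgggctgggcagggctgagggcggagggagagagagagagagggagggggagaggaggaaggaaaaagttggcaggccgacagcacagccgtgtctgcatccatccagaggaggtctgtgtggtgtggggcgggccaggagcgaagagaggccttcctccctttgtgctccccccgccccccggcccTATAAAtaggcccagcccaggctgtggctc
TATAAA began 32 bases before the start in AQP3 and 30 bases before it in AQP1, and had no match in the window of CFTR. It occurred in 10.7% of the 35116 promoters of the table. TGACG began 236 bases before the start of AQP3, had no match in the other two windows, and occurred in 21.2% of promoters. The search took exact matches only, so no match does not mean that a variant of either element is absent. MSLN and CA2 are named only.

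The libraries held 34572931 counts (parental) and 34507480 counts (resistant). The resistant library is the one whose column heading the labels do not spell out, and every direction rests on that assignment. BRCA2, whose amplification the series title names, went from 1381 parental to 7585 resistant counts, 5.53-fold higher (interval 5.22 to 5.86). The length behind its FPKM was that of a 2011-base non-coding BRCA2 transcript, so the row may not speak for the coding one. Of the 17 listed markers of duct epithelium 16 had a row, and the keratin KRT19 had deposited FPKM values of 932 (resistant) and 704 (parental), KRT7 410 and 273. The KRT19 length was that of a 654-base transcript with a retained intron, so its FPKM carries the limit that BRCA2 does. SPP1, a secreted glycoprotein gene, had 0 resistant and 3 parental counts. Of the 15102 genes reaching 50 counts (the count minimum used throughout), 6.0% exceeded a 2-fold ratio in the resistant library, 8.95% were lower by that size, and the median log2 ratio was 0.06.

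What a row of the table counts bears on every value. The count divided by the FPKM value gives the gene length used, and for 88.4% of 5505 well-counted coding genes it matched the length of 1 annotated transcript within 0.2%. With all lengths moved by 2%, 1.96% matched. Among genes with several transcripts, 16.8% matched the longest. For CFTR the length was that of a 4316-base transcript, while the longest has 6132 bases. For ANO1 it was that of a 789-base transcript, against 4790 bases for the longest, and for CA12 that of a 2556-base transcript, against 6413. CA2, CA9 and AQP5 matched their longest transcript, with 1717, 1618 and 1450 bases. MSLN matched 1 of 2116 bases and AQP1 1 of 2487 bases. SCTR, with 3 counts in all, matched 1 of 1865 bases within wide limits, and AQP3 matched none.

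The ratios also followed the number of transcripts. Among coding genes with at least 500 counts, 18.1% of the 496 genes with 1 annotated transcript lay within 0.1 of a log2 ratio of 0. The share was 10.1% with 2 to 3 transcripts, 5.57% with 4 to 6, 3.87% with 7 to 12 and 1.49% of the 1683 genes with 13 or more. Over the larger set of coding genes with 50 counts or more, the shares past 2-fold upward and downward were 6.14% and 8.6% of the 814 genes with 1 transcript, and 4.93% and 9.82% of the 2842 genes with 13 or more. CFTR has 18 annotated transcripts, ANO1 10, MSLN 8, AQP3 7, CA12 6, CA2, AQP1 and SCTR 5, CA9 4 and AQP5 2. A row may thus stand for part of its gene, and ratios near 1 are rare among genes with many transcripts. How the rows were made is not given in the sources used here. The values below are those of the deposited rows.

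**Figure D1:**
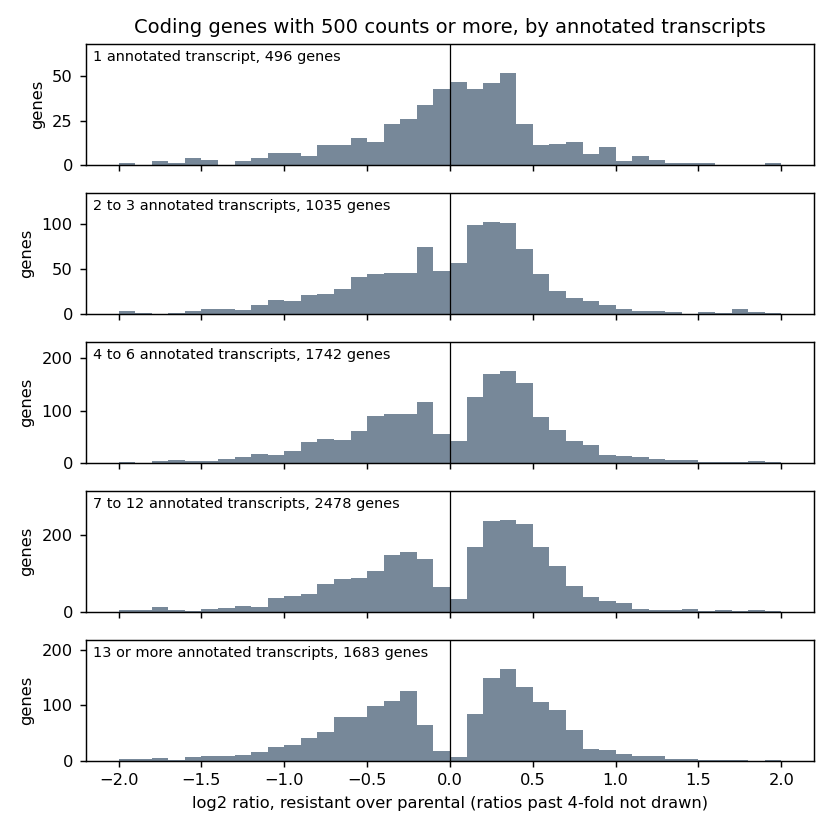
Number of coding genes (vertical axis) by log2 ratio of resistant over parental (horizontal axis) for genes with 500 counts or more, in 5 panels by the number of annotated transcripts. With 1 transcript the ratios form 1 peak around 0, and with 13 or more only 1.49% of genes lie within 0.1 of 0, between a peak on each side.

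Among the channels, CFTR had 8946 parental and 2563 resistant counts, or FPKM values of 23.4 and 6.98. The level was 3.47-fold lower in the resistant library (interval 3.32 to 3.62), a log2 ratio of -1.79, and 2.36% of all genes at the count minimum had a lower ratio. CFTR stayed among the better expressed genes, with an FPKM above 80.9% of all rows even in resistant cells, against 92.4% in parental cells. ANO1 had 2026 parental and 1038 resistant counts, or FPKM values of 28.9 and 15.5. It was 1.94-fold lower (interval 1.80 to 2.09), just short of the 2-fold size, which lies inside its interval. ANO1 exceeded CFTR on the FPKM scale in each library, with counting intervals that did not overlap, although its FPKM rests on the short transcript named above.

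Among the carbonic anhydrases, the cytosolic enzyme CA2 had 670 parental and 136 resistant counts. It was 4.89-fold lower (interval 4.06 to 5.93), and 1.18% of genes had a lower ratio. CA12, a membrane enzyme whose active site faces outward, had 652 parental and 400 resistant counts and was 1.62-fold lower (interval 1.43 to 1.84). CA2 was above CA12 in the parental library, with FPKM values of 4.40 and 2.87, and below it in the resistant library, with 0.931 and 1.84. The counting intervals of the 2 genes did not overlap in either library. They do not cover the choice of length, on which an order between genes rests. The CA12 value used 2556 bases, against 6413 for its longest transcript, and the CA2 value 1717, its longest. CA9, the membrane enzyme known as a target of hypoxia-inducible factor (HIF), had 27 parental and 45 resistant counts, a ratio of 1.68 (interval 1.02 to 2.81). With 45 counts CA9 fell just under the count minimum, and it overlaps ARHGEF39 on the other strand, which had 208 and 144 counts.

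The aquaporins went in different directions. AQP3, which passes water and glycerol, had 910 parental and 271 resistant counts and was 3.34-fold lower (interval 2.91 to 3.83). AQP5, a water channel of secretory epithelia, had 24 parental counts and 0 resistant counts, at least 7.95-fold lower against a floor of 3 counts per library. The exact interval, which also counts the error of the parental value, reaches to 5.98-fold lower. These 24 counts are below the count minimum, and an antisense gene that overlaps AQP5, AC025154.2, had 89 parental and 38 resistant counts. AQP1, a water channel of duct and endothelium, had 28 parental and 70 resistant counts, a ratio of 2.52 (interval 1.60 to 4.05). AQP1 was the called gene nearest to both limits, with FPKM values of only 0.127 and 0.331. On the log2(FPKM + 0.1) scale its difference was 0.92, below 2-fold. It overlaps AC004691.2 on the same strand, which had 53 and 51 counts.

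The secretin receptor SCTR had 0 parental and 3 resistant counts. Both are at or under the floor, so no fold is given, and a count of 0 allows up to 3. SCTR was not detectable above that floor in the parental library. MSLN had 35 parental and 404 resistant counts, or FPKM values of 0.186 and 2.24. It was 11.6-fold higher in the resistant library (interval 8.22 to 16.9), a log2 ratio of 3.50, and 0.437% of genes had a higher ratio. No annotated gene overlaps MSLN, AQP3 or CA12. SCTR is overlapped on the other strand by AC013275.1, with 14 parental and 0 resistant counts. On their own strand AP000879.2 (1 and 4 counts) overlaps ANO1 and AC000111.2 (8 and 3) overlaps CFTR. MSLN stood level with CA9 and AQP5 in the parental library, at FPKM values of 0.186, 0.188 and 0.187, and below ANO1 and CFTR alone in the resistant library.

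**Figure D2:**
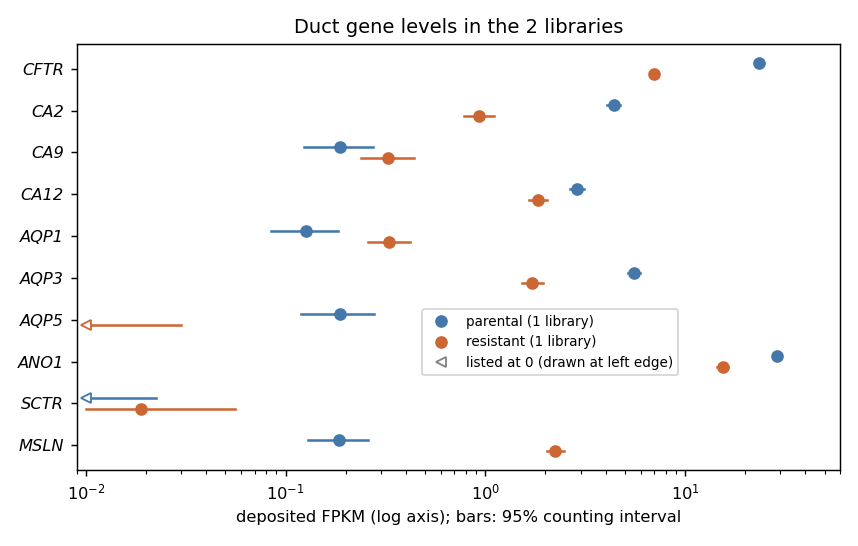
Deposited FPKM on a log axis for the 10 duct genes in the parental (blue) and resistant (orange) library, with 95% counting intervals as bars and open triangles for genes listed at 0. ANO1 and CFTR lead in each library on this scale, and MSLN moves from 0.186 to 2.24. The scale rests on the length used for each gene, which the bars do not cover.

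On the FPKM scale the order in the parental library was ANO1, CFTR, AQP3, CA2 and CA12, from 28.9 down to 2.87, with no overlap of counting intervals between neighbours. CA9, AQP5, MSLN and AQP1 followed between 0.188 and 0.127 with overlapping intervals, and SCTR was at 0. In the resistant library ANO1, CFTR and MSLN led at 15.5, 6.98 and 2.24. The FPKM intervals of MSLN and CA12, at 1.84, met at 2.03. CA12 and AQP3 at 1.72 overlapped, and CA2 at 0.931 lay below them. AQP1 and CA9, at 0.331 and 0.327, overlapped. Both orders rest on the lengths behind the FPKM values, which counting intervals do not cover. ANO1 led with 2026 parental counts against 8946 for CFTR, its FPKM resting on a 789-base transcript. Of the 10 genes, 7 reached 50 counts, with 2 called higher (MSLN, AQP1) and 3 called lower (CFTR, CA2, AQP3), beside 6.0% and 8.95% of all genes. The genes were chosen on this contrast, and nothing is read from that comparison.

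**Figure D3:**
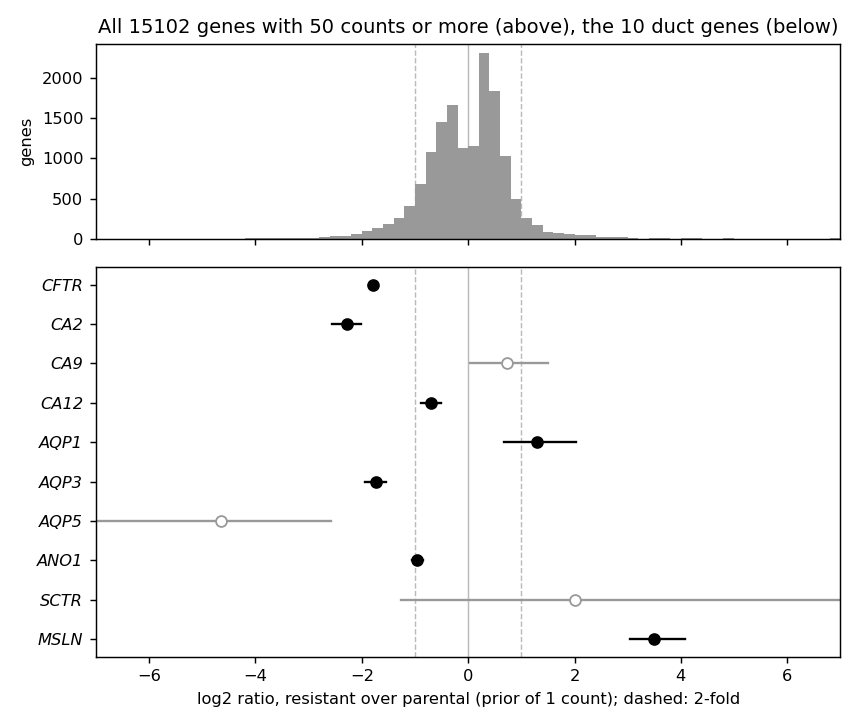
Upper panel, number of genes by log2 ratio of resistant over parental for the 15102 genes with 50 counts or more. Lower panel, the log2 ratio of each duct gene with its 95% counting interval (open circles, under 50 counts; bars cut at the frame), from CA2 at -2.28 to MSLN at 3.50 among genes at the count minimum.

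The relatives of these genes were read from lists that leave the 10 out. The counts of each list are to be set beside the 6.0% higher and 8.95% lower of all genes at the minimum. Of 8 other carbonic anhydrases with a row 3 reached 50 counts, and none was past 2-fold, with CA13, a cytosolic enzyme, 1.85-fold lower (1187 parental and 636 resistant counts) and CA5B, a mitochondrial one, 1.64-fold lower. Of 5 other aquaporins AQP6 alone reached 50 counts, at a log2 ratio of -0.67. Of 9 other anoctamins 6 did, with 1 higher and 2 lower. ANO3 had 0 parental and 73 resistant counts, at least 24.5-fold higher against the floor of 3 counts, while its exact interval starts at 19.4-fold. ANO5 was 2.51-fold and ANO9 2.03-fold lower. The scramblase gene ANO6 had FPKM values of 27.8 and 23.3, close to ANO1 in the parental library on that scale only. It had 14718 parental and 11865 resistant counts, against 2026 and 1038 for ANO1, whose FPKM rests on a 789-base transcript.

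Among 12 other receptors of the secretin family 4 reached 50 counts, with none higher and 2 lower. VIPR1, the receptor for vasoactive intestinal peptide and likewise coupled to cAMP, had 2180 parental and 598 resistant counts and was 3.62-fold lower (interval 3.31 to 3.97). CALCRL had 80 parental and 3 resistant counts, a ratio of 0.0377 (interval 0.00762 to 0.114). VIPR1 had FPKM values of 8.86 and 2.53, against 0 and 0.019 for SCTR. Of 15 cAMP signalling genes at the minimum none was higher and 3 were lower, beside 6.0% and 8.95% of all genes. The adenylyl cyclase gene ADCY5 was 7.79-fold lower (2173 and 277 counts), the phosphodiesterase gene PDE4C 2.91-fold and the cyclase gene ADCY3 2.09-fold lower. The other 12 were within 2-fold.

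Ion carriers and channels of duct secretion numbered 19 at the minimum, 0 of them higher and 6 lower, beside 6.0% and 8.95% of all genes. Their median log2 ratio was -0.55, beside 0.06 over all genes, and -0.93 when genes with 10 counts or more were taken. SLC26A9, an epithelial chloride channel, had a log2 ratio of -3.15 (652 parental and 72 resistant counts), which was the lowest of the list at 50 counts or more. KCNE3 was 6.36-fold lower (6421 and 1003) and KCNQ1, the potassium channel that KCNE3 joins, 5.82-fold (211 and 36). The sodium bicarbonate carrier SLC4A4 had 586 and 526 counts. A further carrier of that family, SLC4A7, was 1.98-fold higher with 1581 and 3105 counts. Genes of CFTR folding, trafficking and regulation had a median of 0.13, and of their 23 members at the minimum 2 were higher and 0 lower. PDZK1, a scaffold that binds CFTR, was 6.28-fold higher (64 parental and 399 resistant counts) and STX1A, a syntaxin, 2.17-fold higher.

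Among genes around mesothelin, 1 of 16 at the minimum was lower and none higher, again beside 8.95% and 6.0% of all genes. The protease gene MMP7 was 3.55-fold lower (29118 parental and 8144 resistant counts). MUC16, which encodes the binding partner of mesothelin, had 28 and 8 counts. FURIN, which encodes a protease that cuts the mesothelin precursor, had 284 and 171. Of 8 mesothelium markers with a row 2 reached 50 counts, WT1 with 48 parental and 76 resistant counts and THBD with 100 and 156. CALB2 had 46 and 17 counts, ITLN1 32 and 4, UPK3B 23 and 43, UPK1B 9 and 2, LRRN4 0 and 7 and PDPN 1 and 0. The summed FPKM of the list was 1.49 in each library, although its genes went in both directions. Of 8 stroma markers with a row 3 passed the count minimum. LUM, an extracellular matrix proteoglycan gene, went from 35 to 523 counts, 15.0-fold higher, the collagen gene COL1A1 was 2.54-fold lower (97 and 38), and ACTA2 had 53 and 106 counts. The other five markers were under the minimum and each had more counts in the resistant library, VIM with 11 and 46, COL3A1 with 0 and 8, PDGFRB with 1 and 6, DCN with 0 and 5 and FAP with 0 and 3. The summed FPKM of the list was 0.814 (parental) and 3.76 (resistant). Of 3 acinar and endocrine markers with a row PRSS1 reached the minimum at a log2 ratio of 0.91, and of 7 blood and endothelial markers CD68 did, at 0.74. In such bulk RNA fewer cells of a type and less RNA per cell cannot be told apart, and the part of other cells in these differences was not tested.

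Targets of HIF, the factor tied to CA9, had 0 higher and 2 lower of 20, VEGFA 2.20-fold and EGLN3 2.09-fold lower, with a median of 0.39. Duct and endoderm transcription factors had 1 higher and 3 lower of 18, which is to be read beside 6.0% higher and 8.95% lower over all genes. CDX2, an intestinal factor, was 7.23-fold higher (145 parental and 1042 resistant counts), FOXA2 4.08-fold (156 and 38), ONECUT3 2.73-fold and ELF3 2.06-fold lower. Among the duct epithelium markers none was higher and 3 of 13 were lower, LCN2 5.71-fold, TFF2 4.44-fold and MUC1 2.54-fold. The median over these 13 was 0.32. Since ratios near 1 are rare among genes with many transcripts, a list median close to 0 does not show that its genes were level.

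**Figure D4:**
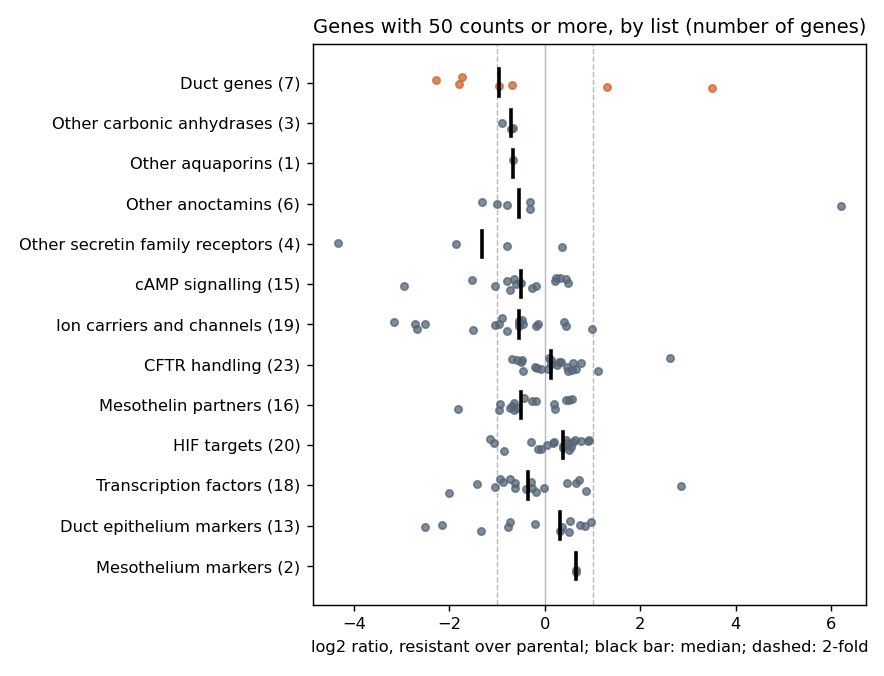
Log2 ratio of resistant over parental for each gene with 50 counts or more, by list (number of genes in brackets), with the median as a black bar and dashed lines at 2-fold. Ion carriers and channels reach down to -3.15 with none past 2-fold higher. The 7 duct genes spread from -2.28 to 3.50, the other anoctamins from -1.33 to 6.21 and the transcription factors from -2 to 2.85.

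Neighbouring genes were a measure that the choice of the 10 genes did not use. For each gene the 5 measured coding genes on either side were taken in the order of GENCODE release 29. Over these 100 neighbours 4 passed 2-fold upward and 4 downward (4.0% each, beside 6.0% and 8.95% of all genes), and their median log2 ratio was 0.14. The 100 were not all separate from the duct genes or from each other. ARHGEF39 overlaps CA9, and AC004691.2 overlaps AQP1. INMT-MINDY4 (429 parental and 481 resistant counts) and MINDY4 (438 and 492), both near AQP1, are 2 entries with nearly the same counts. None of the neighbours of CA2, CA9, AQP1, AQP3, ANO1 or SCTR was past 2-fold. Near CFTR the caveolin genes CAV1 and CAV2 were 5.39-fold and 3.25-fold higher, while CTTNBP2, which overlaps CFTR on the other strand, had 119 parental and 46 resistant counts and was 2.57-fold lower. Near MSLN, METRN (38 parental and 112 resistant counts) and HAGHL (88 and 262) were past 2-fold higher and BAIAP3 was 3.33-fold lower. DAPK2 near CA12 was 2.81-fold and NCKAP5L near AQP5 2.52-fold lower.

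**Figure D5:**
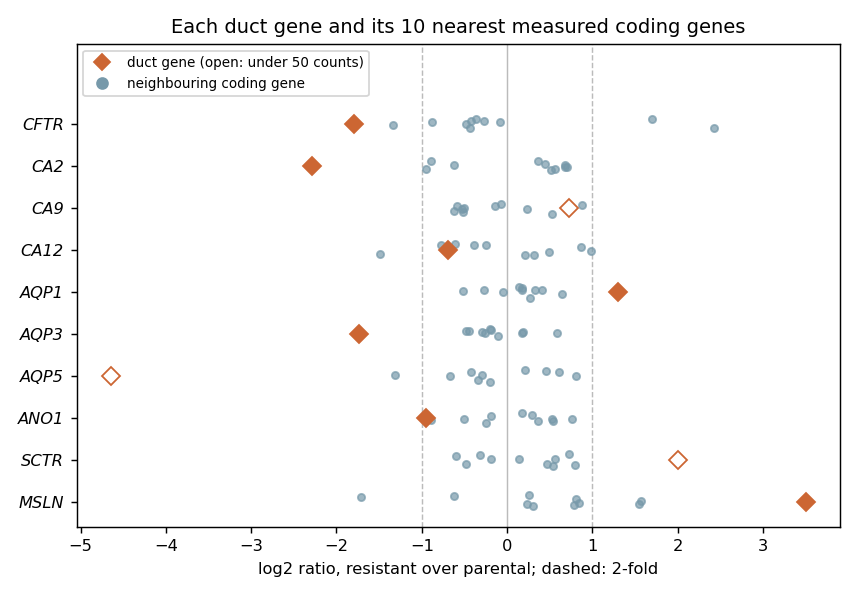
Log2 ratio of resistant over parental for each duct gene (diamonds; open under 50 counts) and its 10 nearest measured coding genes (circles), with dashed lines at 2-fold. CFTR, CA2, AQP3 and ANO1 lie below all 10 of their neighbours, AQP1 above its own, and MSLN at 3.50 above neighbours that reach 1.57 at most.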

How the data were processed

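RNA was sequenced in 2 libraries, 1 per group. The labels' protocols give Trizol extraction and strand-specific ScriptSeq libraries. The deposited table gives whole-number counts and FPKM values per Ensembl gene for each library, per the file headers. The tool RSEM 1.2.3 and the genome build hg19 appear, per the submitters' processing notes, without a role. The annotation, and whether counting used strand, is not given in the sources used here. Each FPKM value of the authors divides the count by 1 length and by a library denominator. From genes with 1 transcript these denominators were found, and the deposited counts sum to 39.0% (parental) and 40.5% (resistant) of them.

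Gene names came from a gene name table (29536 identifiers) and GENCODE release 29 (29719), which describes another build and served for names, gene order, overlaps and transcript lengths only. Counts were scaled with TMM factors (edgeR 4.0.16, R 4.3.3), with a prior of 1 count on the log2 scale. A gene was called at 50 counts or more in a library and a 2-fold ratio. The scripts were checked on simulated counts. Named genes are the 10 duct genes, BRCA2 and, from each list, up to 4 genes past 2-fold with the largest ratios, or the 2 largest where none passed, except 1 gene that is not reported here. SLC4A4, SLC4A7, ANO6, MUC16, FURIN, KRT7, KRT19, SPP1, the mesothelium markers other than WT1 and THBD, the stroma markers other than LUM and COL1A1, and the named neighbours were chosen after their values were seen. The 10 genes and all lists were chosen with earlier results of these data known. Python 3.11.15, numpy 2.4.6, pandas 2.3.3, scipy 1.17.1, statsmodels 0.14.6 and matplotlib 3.10.9 were used.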

Additional observations from a re-analysis of the deposited data

How the results depend on the processing

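No paired analysis was possible because each group has 1 library. Among the 10 duct genes 2 were called higher and 3 lower, and other scalings (median of ratios, upper quartile, totals), other prior counts and removal of the length trend left these numbers at 2 and 3. The number higher was 1 with a count minimum of 200, with a 4-fold size and with the deposited FPKM values, and AQP1 was the gene lost each time. The number lower was 4 with a count minimum of 10, where AQP5 joined, 5 at 1.5-fold, where ANO1 and CA12 joined, and 1 at 4-fold, where CA2 was left. The median over duct genes at the count minimum was -0.96 and became -1.34 with a minimum of 200. Over all genes 906 were higher and 1352 lower. These numbers became 1975 and 2821 when 10 counts sufficed, 474 and 741 when 200 were needed, 2541 and 3209 at 1.5-fold, and 252 and 250 at 4-fold. More or fewer calls follow from these settings themselves, but the balance of directions does not, and at 4-fold there was no surplus of lower genes. They were 1034 and 1184 with upper quartile scaling, 842 and 995 with the FPKM values and 1053 and 1105 with the length trend removed, so the surplus of lower genes was smaller there. Of 96 alternative medians of the comparison lists 7 moved and none changed sign, among them the secretin family receptors, from -1.33 to -0.80 with a minimum of 10, and the transcription factors, from -0.34 to -0.10 with 200. No duct gene changed sign. CFTR ranged from -1.80 to -1.49, the latter with the length trend removed, CA2 from -2.29 to -2.13, AQP3 from -1.74 to -1.63, AQP1 from 0.92 to 1.44 and MSLN from 3.04 to 3.59. AQP5 ranged from -6.60 to -1.52 and SCTR from 0.25 to 3.71, since a library at 0 or 3 counts leaves the ratio to the prior or pseudocount. Depth limits CA9, AQP5 and SCTR.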

Other observations

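The match between deposited lengths and single transcripts showed in genes outside the duct list too. HSP90AA1, which encodes a chaperone that most cells make in quantity, had 42 parental and 18 resistant counts, and its length was that of a 595-base transcript, against 3510 bases for the longest. CLDN4, an epithelial tight junction gene, had 10 and 28 counts at 593 bases, against 4163. GNAS, which encodes the protein that couples the secretin receptor to cAMP, had 2324 and 2045 counts at 641 bases, against 4029. BRCA2 had its 1381 and 7585 counts at 2011 bases, against 11986, and the matching BRCA2 transcript is annotated as a processed transcript without a coding sequence. Among matched coding genes with several transcripts, the median parental count was 1241 for the 1791 genes whose length was under 25% of the longest transcript, and 3370 for the 1260 genes above 75%. These genes and this comparison were chosen after the values were seen, and how each row was formed was not tested.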
